A study of Danio rerio with 5 samples.

Results

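The T-cell genes described here are 9 genes that mark or run T cells in vertebrates: lck, zap70, cd4-1, cd8a, cd8b, cd28, il7r, bcl11ba and foxp3a. They were taken by Ensembl symbol, in any letter case, from the read counts of 32520 zebrafish (Danio rerio) gene IDs, and each name matched 1 ID. Of the 9 genes, 8 passed the filter on low counts that left 20386 genes for testing, and cd8b did not.

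Bulk RNA sequencing was done on whole dissected kidneys of adult fish of strain EK, at an age of 2.5 months, with 3 kidneys pooled for each library. The wild-type group (WT) held 3 libraries, numbered 1, 2 and 3. The mutant group held 2 libraries, numbered 5 and 6, from siblings with the genotype runx1-/- on the del8 (hg96) allele. Each library is a pool, so differences between single fish were averaged before sequencing, and p-values measure the spread between pools.

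T cells read antigen through a receptor at the cell surface. When it is engaged, the kinase Lck, bound to the coreceptors CD4 or CD8, phosphorylates the receptor complex, which then recruits the kinase ZAP-70. CD28 gives the second signal, interleukin 7 keeps developing and resting T cells alive, and BCL11B and FOXP3 are transcription factors of T-lineage commitment and of regulatory T cells. In zebrafish the kidney marrow is the adult site of blood formation, and T cells mature in the thymus and circulate back to it. A kidney library therefore holds RNA of nephrons and of all blood lineages, and T cells are a small part of it. The transcription factor encoded by runx1 is needed to form blood stem cells, and in mice it also represses Cd4 in immature thymocytes. The design compares kidney expression between adults with and without functional runx1.

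Counts assigned to genes lay between 27631376 and 33752278 per library. The runx1 gene had 139, 90 and 87 counts in WT 1, 2 and 3 and 184 and 56 counts in null 5 and 6, so its level overlapped between the groups, and a whole-gene count cannot reveal a small deletion. WT 2 and null 6 stood apart from the other 3 libraries. The summed level of 8 oocyte genes was 863 CPM (counts scaled to the effective library size) in WT 2 and 5251 CPM in null 6, against 5.34 to 13.1 CPM in the others. This split crosses the genotypes, and differences within it are given below. Summed over 6 nephron genes, the level was 355, 427 and 12.8 CPM in WT 1, 2 and 3, and 2307 and 263 CPM in null 5 and 6. The highest and the lowest nephron levels thus fell in null 5 and WT 3.

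All 9 T-cell genes were detected in every library, at 1 to 208 counts. As a check of the label, the T-cell receptor beta constant gene trbc1 had 81, 60 and 32 counts in the WT libraries and 201 and 30 counts in null 5 and 6. Of the thymus epithelium genes, aire had 1 or 2 counts in every library and psmb11b had at most 1. foxn1, the transcription factor of that epithelium, had 29, 33 and 0 counts in WT 1, 2 and 3 and 0 and 175 counts in null 5 and 6. It was thus not detected in WT 3 and null 5, and in null 5 a level of 3 counts is 0.0964 CPM. dll4, the remaining matched gene of that list, had 152, 208 and 270 counts in WT 1, 2 and 3. It had 480 and 214 counts in null 5 and 6, and its CPM was highest in null 5. Whether any pool held thymus tissue was not tested.

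The main pattern was that T-cell genes were not reduced together in the null kidneys. All 8 tested genes, and cd8b, had their highest CPM in null 5, whereas 22.8% of the genes tested were highest there. The lowest library was WT 3 for 6 of the 8 tested, beside 28.8% of all genes, and null 6 for the other 2. For cd4-1, cd8b and foxp3a the 95% Poisson interval of null 5 overlapped that of WT 2, and for il7r that of null 6. In null 6 the 9 genes lay within or below the WT range, except il7r, which lay above it. With edgeR's quasi-likelihood test, 0 of the 8 tested T-cell genes were called at an adjusted p-value of 0.05, and 0% of all genes tested were called. At an unadjusted p under 0.05 there were 0 of the 8, where 4.37% of all genes passed. The DESeq2 Wald test also called 0 of the 8, against 0.368% of all genes. The log2 fold changes, null over wild type, were positive for 8 of 8, with a median of 0.83, beside a median of 0.24 over all genes tested, of which 58.2% were positive. Without null 5 the values were positive for 2 of the 8, so the sign rests on that library. In a bulk library, fewer T cells and less RNA per T cell cannot be told apart.

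**Figure D1:**
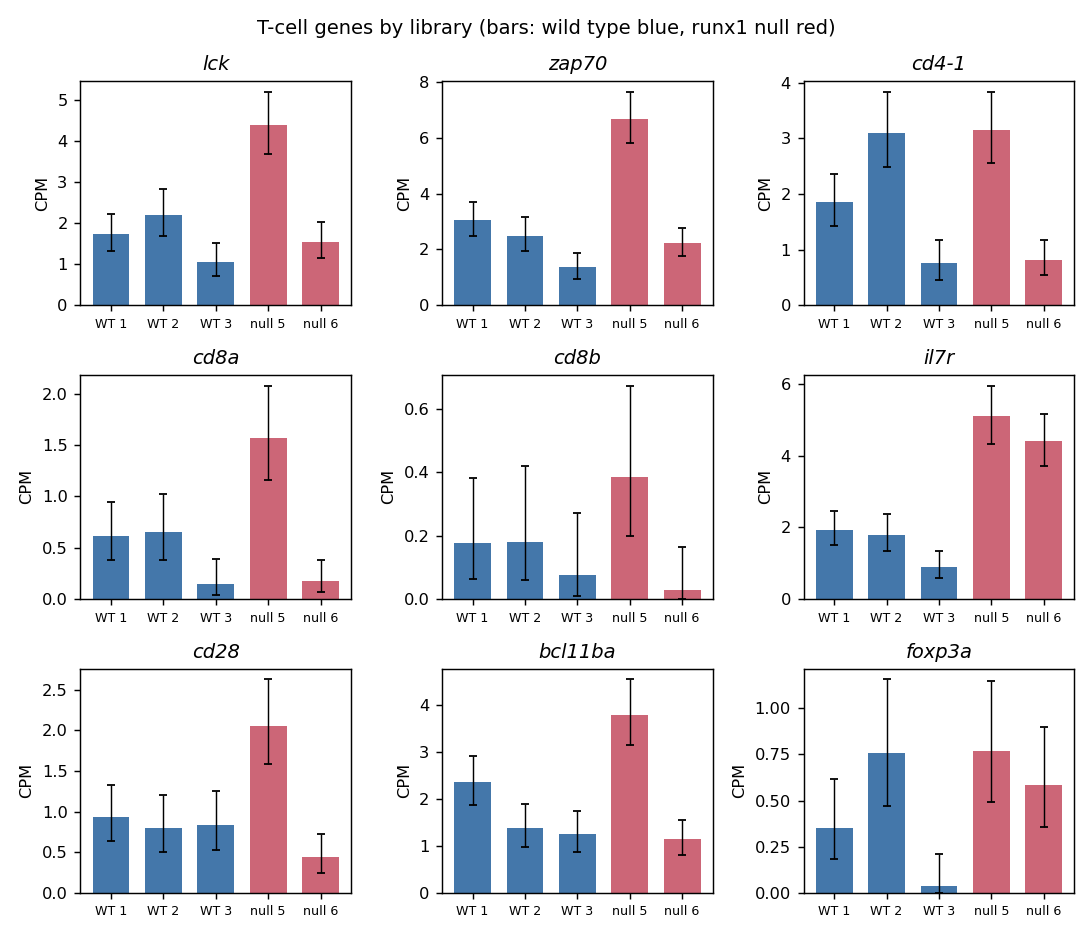
Level of each T-cell gene in CPM (y axis, from 0, own scale per gene) in the 5 libraries (x axis, WT in blue, runx1 null in red). Bars are single libraries and whiskers are exact 95% Poisson intervals, which cover counting error only. null 5 is the highest bar in every panel, and null 6 lies above all 3 WT libraries only for il7r.

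The 2 kinases of the receptor had nearly the same pattern. lck (ENSDARG00000102525) had 59, 61 and 28 counts in WT 1, 2 and 3 and 137 and 53 counts in null 5 and 6, or 1.73, 2.199 and 1.06 CPM against 4.40 and 1.55 CPM. null 5 was above all other libraries, and null 6 lay between WT 3 and WT 1, so the groups overlapped. The exact 95% Poisson interval of null 5, 3.70 to 5.21 CPM, lay above that of the next library, WT 2, at 1.68 to 2.82 CPM, whereas WT 2, WT 1 and null 6 had overlapping intervals. The group means were 1.66 ± 0.574 CPM (SD, n = 3) and 2.97 ± 2.02 CPM (SD, n = 2). The log2 fold change of lck was 0.84 ± 0.78 (SE), and in edgeR the adjusted p-value was 0.654.

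zap70 (ENSDARG00000015752, listed as ZAP70) had 104, 69 and 36 counts in the WT libraries and 208 and 76 counts in null 5 and 6. This was 3.05, 2.49 and 1.36 CPM against 6.68 and 2.22 CPM. As for lck, null 5 was highest, WT 3 lowest, and null 6 within the WT range. Its log2 fold change was 0.95 ± 0.78 (SE), with an adjusted p-value of 0.631 in edgeR. The ratio of zap70 to lck counts stayed between 1.13 and 1.76 in the 5 libraries, the narrowest range of any T-cell gene here against lck for which a highest-to-lowest ratio was computed.

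The coreceptor genes overlapped between the groups as well. CD4, which reads antigen on MHC class II, is encoded by cd4-1 (ENSDARG00000070668), a gene that in zebrafish is also active in some mononuclear phagocytes. It had 63, 86 and 20 counts in WT 1, 2 and 3 and 98 and 28 counts in null 5 and 6, or 1.85, 3.1005 and 0.755 CPM against 3.15 and 0.817 CPM. null 5 and WT 2 had overlapping counting intervals, as did null 6 and WT 3, so the 2 genotypes covered the same range. The log2 fold change was 0.06 ± 0.96 (SE), the smallest of the 8, with an adjusted p-value of 0.980 in edgeR.

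CD8, which reads antigen on MHC class I, is a pair of chains. Its alpha chain gene cd8a (ENSDARG00000044797) had 21, 18 and 4 counts in WT 1, 2 and 3 and 49 and 6 counts in null 5 and 6, or 0.616, 0.649 and 0.151 CPM against 1.57 and 0.175 CPM. null 5 again stood above the rest, and null 6 lay just above WT 3. The highest library was 10.4 times the lowest, the widest range among the 7 genes with more than 3 counts in every library. Its log2 fold change was 0.88 ± 1.15 (SE), with an adjusted p-value of 0.736 in edgeR.

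The beta chain gene cd8b (ENSDARG00000058682) had 6, 5 and 2 counts in WT 1, 2 and 3 and 12 and 1 counts in null 5 and 6. Its order of libraries followed cd8a except that null 6 was lowest. The level in null 6, 0.0292 CPM, had an exact Poisson interval from 0.000739 to 0.163 CPM, which overlapped those of all 3 WT libraries. cd8b was not tested in the main comparison. With no filter on low counts its log2 fold change was 0.50 ± 1.27 (SE), with an adjusted p-value of 0.887 in edgeR. In the RefSeq annotation of assembly GRCz12tu, cd8a and cd8b lie on the same chromosome with no protein-coding gene starting between them.

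cd28 (ENSDARG00000095070), the costimulatory receptor, varied least within wild type. It had 32, 22 and 22 counts in WT 1, 2 and 3 and 64 and 15 counts in null 5 and 6. This was 0.939, 0.793 and 0.831 CPM against 2.06 and 0.438 CPM. The null libraries thus lay on either side of all WT libraries, and the mean of 1.25 ± 1.14 CPM (SD, n = 2) covers the WT mean of 0.854 ± 0.0755 CPM (SD, n = 3). The log2 fold change was 0.54 ± 0.87 (SE), with an adjusted p-value of 0.788 in edgeR.

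il7r (ENSDARG00000078970) was the 1 gene of the 9 whose level did not overlap between the groups. It encodes the alpha chain of the interleukin 7 receptor, which zebrafish need for T-cell development. It had 66, 50 and 24 counts in WT 1, 2 and 3 and 159 and 151 counts in null 5 and 6, or 1.94, 1.80 and 0.906 CPM against 5.11 and 4.41 CPM. Both null libraries lay above all WT libraries, and their Poisson intervals, from 3.73 CPM upwards, did not reach the highest WT bound of 2.46 CPM. No other T-cell gene was free of overlap in either direction. A count of 1 in the 8 tested is near the share of all genes tested with both null libraries above all WT libraries, 11.1%. The means were 1.55 ± 0.560 CPM (SD, n = 3) and 4.76 ± 0.497 CPM (SD, n = 2). The log2 fold change of il7r was 1.62 ± 0.67 (SE), with p-values in edgeR of 0.0538 before and 0.612 after adjustment. It was positive under all 14 alternative settings, from 1.34 to 3.06, and its adjusted p-values in edgeR or DESeq2 ranged from 0.0746 to 0.906. Of these settings, 1 changed only the threshold. Leaving out a library was bound to keep the sign, because the groups did not overlap.

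In null 6, il7r also parted from the other T-cell genes of the same library. There were 2.85 il7r counts per lck count in null 6, against 1.16 in null 5 and 0.820 to 1.12 in the WT libraries. The receptor chain gene thus stood in proportion to lck in 4 libraries and not in null 6. null 6 was the library highest in oocyte genes, and WT 2, the next highest, had 0.820 il7r counts per lck count. Whether cells other than T cells supplied il7r counts there was not tested.

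The 2 transcription factor genes had unlike patterns. bcl11ba (ENSDARG00000062510), whose mouse counterpart commits thymocytes to the T lineage, had 80, 38 and 33 counts in WT 1, 2 and 3 and 118 and 39 counts in null 5 and 6. This was 2.35, 1.37 and 1.25 CPM against 3.79 and 1.14 CPM, so null 6 was lowest by a margin within counting error. Its log2 fold change was 0.57 ± 0.81 (SE), with an adjusted p-value of 0.757 in edgeR.

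foxp3a (ENSDARG00000055750), the factor of regulatory T cells, had 12, 21 and 1 counts in WT 1, 2 and 3 and 24 and 20 counts in null 5 and 6. This was 0.352, 0.757 and 0.0378 CPM against 0.771 and 0.584 CPM. Only WT 3 had an interval that stayed below those of WT 2, null 5 and null 6, and it overlapped that of WT 1. The log2 fold change was 0.82 ± 1.14 (SE), with an adjusted p-value of 0.753 in edgeR.

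Within the split by oocyte genes the 2 comparisons pointed in different directions. Between null 5 and the mean of WT 1 and 3, the difference in log2 CPM was positive for 8 of the 8 tested genes, with a median of 1.67, beside a median of 0.06 over all genes tested. The values ran from 1.12 for bcl11ba to 2.096 for cd8a. Between null 6 and WT 2 it was positive for 1 of the 8, il7r at 1.26, and the median was -0.42, beside 0.04 over all genes. There lck was at -0.49, zap70 at -0.16, cd8a at -1.57 and cd4-1 at -1.84. Null 6 against WT 2 is 1 library each, so no test was possible there. These 2 libraries also differed in content, with a median difference of -2.885 for the 11 leukocyte genes and 2.59 for the 8 oocyte genes. For null 5 against WT 1 and 3, the edgeR log2 fold changes of the 8 tested genes ran from 1.04 for bcl11ba to 1.98 for cd8a. The spread of the lone null library could not be measured, and it was assumed to vary like the WT libraries. Nephron genes were at their highest in null 5 as well, and their part in these differences was not tested.

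Levels of blood-cell genes in a kidney library also follow how much blood RNA the pool held. The 11 leukocyte genes used here as a reference, such as ptprc, which encodes the surface phosphatase CD45, and coro1a, an actin regulator, summed to 34226, 19285 and 9251 counts in WT 1, 2 and 3 and to 17946 and 4895 counts in null 5 and 6. null 6 thus had the fewest leukocyte reads of the 5 libraries. Against this reference the T-cell genes were higher in both null libraries. Per 1000 leukocyte counts, lck stood at 1.72, 3.16 and 3.03 in WT 1, 2 and 3 and at 7.63 and 10.8 in null 5 and 6. zap70 stood at 3.04, 3.58 and 3.89 against 11.6 and 15.5. For both kinase genes, each null value was over 2 times every WT value.

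The coreceptor cd4-1 was at 1.84, 4.46 and 2.16 per 1000 leukocyte counts in WT 1, 2 and 3 and at 5.46 and 5.72 in null 5 and 6. cd8a was at 0.614, 0.933 and 0.432 against 2.73 and 1.23. For these genes the groups came closer together than for the kinases. il7r showed the widest separation, at 1.93, 2.59 and 2.59 in WT against 8.86 and 30.8 in null 5 and 6. Of the 9 genes, 8 had both null libraries above all WT libraries on this scale, where 22.7% of all genes tested did so, and cd8b overlapped. The level was also taken as the difference between a gene's log2 CPM and the mean log2 CPM of the leukocyte list. On that scale 8 of the 8 tested were higher, beside 19.9% of all genes tested, and 0 were lower, beside 2.87%. cd8b was higher there too, but it had 1 count in null 6, so its log2 value depends on the prior count. The wider T-cell lists were mixed on this log2 scale. Higher were 9 of 17 receptor complex genes, 8 of 16 transcription factor genes and 5 of 7 homing genes. For negative regulators it was 1 of 6, for surface genes 2 of 6 and for the interleukin 7 pathway 3 of 11. Nephron genes were higher in 6 of 6.

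A test relative to the leukocyte genes did not call the T-cell genes. With libraries scaled to the leukocyte genes, edgeR called 0 of the 8 T-cell genes and 11.9% of all genes tested, 2415 of them higher and 14 lower in the null group. The median log2 fold change of the 8 was 1.696 under that scaling and that of all genes was 1.45. il7r, at 3.06 ± 1.21 (SE), had the smallest adjusted p-value of the 8 in edgeR, 0.0746, and lck, at 1.81 ± 1.17 (SE), had 0.322. An exact permutation test of a single value cannot give a p-value below 0.1 with 3 libraries against 2.

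**Figure D2:**
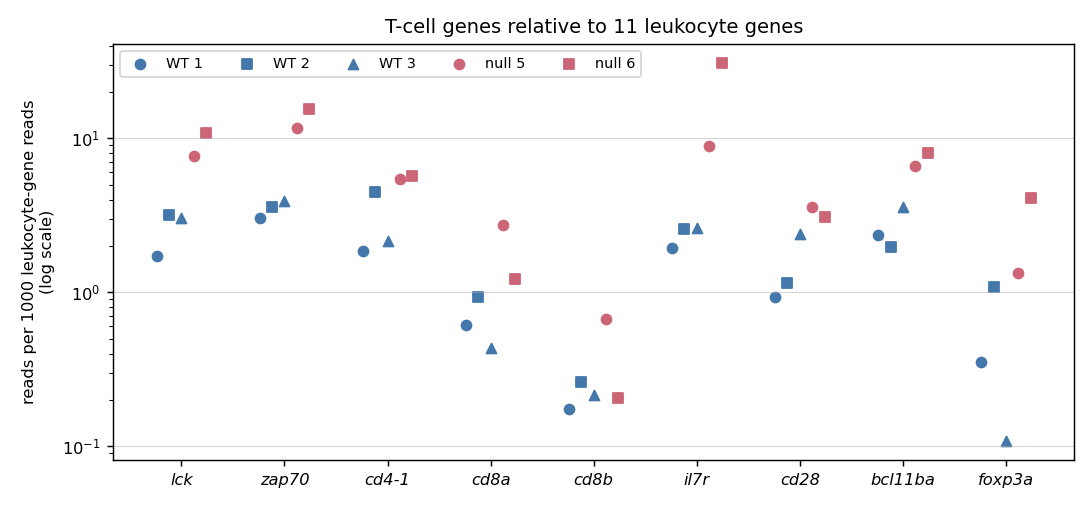
Reads of each T-cell gene per 1000 reads of 11 leukocyte genes (y axis, log scale) for the 9 genes (x axis). Each point is 1 library, with WT in blue and runx1 null in red. Both null points lie above all WT points for every gene except cd8b, where null 6, at 0.204, lies within the WT values of 0.175 to 0.259.

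The B lineage gave a contrast, though other blood lineages were lower in the null group as well. The median log2 fold change of the 9 matched B-cell genes was -2.76. It was -2.03 for neutrophil, -1.63 for erythroid, -1.58 for thrombocyte and -1.06 for macrophage genes. For 7 of the 9 B-cell genes both null libraries lay below all WT libraries, beside 14.8% of all genes tested. The same held for 5 of 5 thrombocyte, 4 of 5 erythroid, 2 of 6 macrophage and 0 of 4 neutrophil genes. None of the B-cell genes was called by edgeR. Of the 9, 5 had an unadjusted p under 0.05 in edgeR, beside 1.21% of all genes tested in that direction. Lower without overlap were the membrane protein gene cd37 at -2.76, the inhibitory receptor gene cd22 at -1.51 and the immunoglobulin heavy chain genes ighd at -3.14 and ighm at -1.89. For ighm this was a near tie, with 10.4 CPM in WT 3 and 10.3 CPM in null 5. cd79a, the partner of cd79b, had 171, 58 and 51 counts in WT 1, 2 and 3 and 5 and 0 counts in null 5 and 6. The B-cell receptor signalling chain gene cd79b had 180, 82 and 80 counts in WT 1, 2 and 3 and 15 and 2 counts in null 5 and 6. Per lck count this was 3.05, 1.34 and 2.86 in the WT libraries and 0.109 and 0.0377 in the null libraries. pax5, the transcription factor of B-cell commitment, was at 2.76, 1.21 and 2.07 per lck count in WT and at 0.0292 and 0.302 in null 5 and 6.

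Set per lck count, all 9 B-cell genes had both null values below every WT value, and so had 27.4% of all genes tested. Of the 7 other tested T-cell genes, 0 were lower and 1, il7r, was higher, beside 2.88% of all genes. The wider T-cell lists did not share this. Lower without overlap per lck count were 9 of 17 genes of the receptor complex and its signalling, 5 of 6 negative regulators and 5 of 6 surface genes. The same held for 8 of 11 genes of the interleukin 7 pathway and 6 of 16 T-lineage transcription factor genes. Some of these had many counts per lck count in WT 1, 2 and 3, such as grap2b at 44.1, 28.8 and 30.9 and ikzf1 at 69.0, 32.7 and 95.25. Others were near the level of lck, such as skap1 at 1.31, 1.54 and 1.57. How much of their counts came from T cells was not tested. The leukocyte genes were lower as well in 9 of 11, with ptprc at 49.9, 32.05 and 40.9 per lck count in WT against 15.02 and 6.13 in the null libraries. Per lck count, macrophage genes were lower without overlap in 6 of 6 and neutrophil genes in 3 of 4. Thrombocyte and erythroid genes were each lower in 5 of 5. These lists were chosen with the earlier B-cell result known, and no test of the difference between the lists was made.

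**Figure D3:**
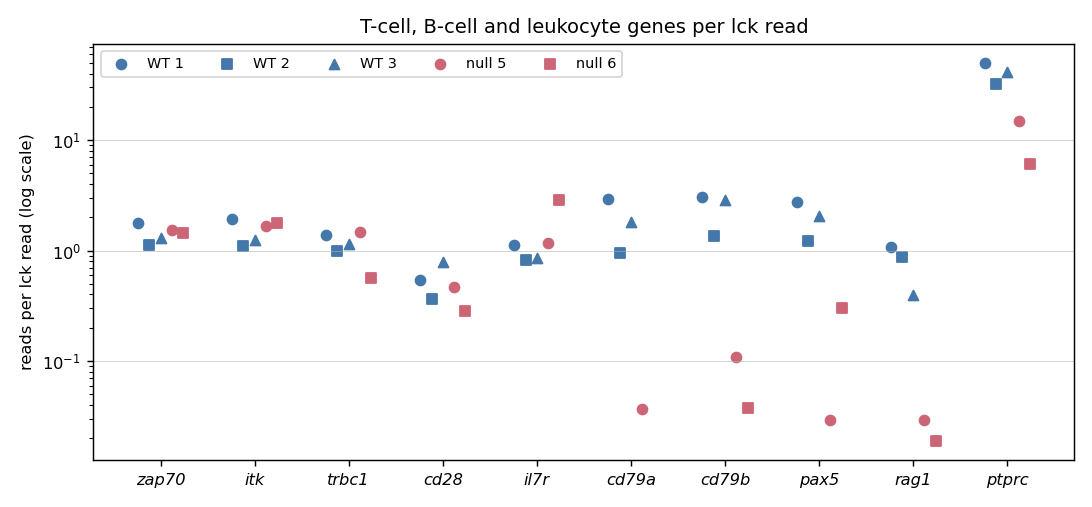
Reads of T-cell genes (zap70, itk, trbc1, cd28, il7r), B-cell genes (cd79a, cd79b, pax5), rag1 and ptprc per lck read (y axis, log scale), 1 point per library with WT in blue and runx1 null in red. The T-cell genes drawn here, other than il7r, overlap between the groups, and itk and trbc1 were chosen after their values were seen. The null points of each B-cell gene, rag1 and ptprc lie below the WT points of the same gene. cd79a in null 6, with 0 counts, is not drawn. In the whole lists, 9 of 17 receptor complex genes and 5 of 6 surface genes were also lower without overlap, beside 27.4% of all genes tested.

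The wider T-cell programme was read from 8 lists, in which 80 of 114 names matched a single gene ID and 68 genes were tested. Names without a match include the receptor chain genes cd3d, cd3e, cd3g and trac and the surface genes cd2, cd5 and ctla4, which were not analysed here. The counts and medians of these lists therefore leave out several of the defining T-cell genes. None of the 68 tested genes was called by edgeR, beside 0% of all genes tested. Of the 68, 5, or 7.35%, had an unadjusted p under 0.05 in edgeR, beside 4.37% of all genes tested. Both null libraries were above all WT libraries for 7 of the 68, or 10.3%, and below them for 11, or 16.2%. These shares are near those of all genes tested, 11.1% and 14.8%. As for the 9 genes, null 5 was often the highest library, for 51.5% of the 68, beside 22.8% of all genes tested. In null 6, 70.6% were at their lowest, beside 36.4% of all genes tested.

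Of the 17 genes of the receptor complex and its signalling, 3 were higher and 3 lower in both null libraries without overlap. Over all genes tested, 11.1% were higher and 14.8% lower in this way. The median log2 fold change of the 17 was -0.03. The highest library was null 5 for 10 of the 17, as for lck. The Tec-family kinase gene itk had 113, 67 and 35 counts in WT 1, 2 and 3 and 228 and 95 counts in null 5 and 6. lat, the adaptor that ZAP-70 phosphorylates, had 87, 53 and 35 counts in WT and 683 and 89 counts in null 5 and 6, a log2 fold change of 2.67 ± 0.98 (SE) with an adjusted p-value of 0.612 in edgeR. Its null 6 level, 2.60 CPM, was within counting error of the 2.55 CPM of WT 1. plcg1, the phospholipase of the pathway, and fynb, a Src-family kinase, were also higher in both null libraries, at log2 fold changes of 1.41 and 1.26. For plcg1, null 5 at 38.0 CPM was close to WT 2 at 35.3 CPM, and null 6 was at 107 CPM.

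Lower without overlap were cd247, the zeta chain of the receptor complex, at -1.35 and lcp2b, a copy of the adaptor SLP-76, at -0.98. cd247 had 406, 374 and 522 counts in WT 1, 2 and 3 and 326 and 44 counts in null 5 and 6, so it was highest in WT 3, where lck was lowest. Its paralogue cd247l had 18, 12 and 10 counts in WT and 57 and 12 counts in the null libraries, with null 5 the highest as for lck. The 6 negative regulators of the receptor, such as the phosphatase gene ptpn22 at -1.09, the adaptor gene dok2 at -0.65 and pag1 at -0.62, overlapped between the groups, with a median of -0.62.

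Of the T-cell surface genes, 6 were tested and all overlapped. cd7al had the smallest p-value among them, with a log2 fold change of -1.63. It was followed by cd4-2.2, a second CD4 gene, at -1.21 and by the costimulatory receptor gene tnfrsf18 at -0.52. cd4-2.2 had 41, 9 and 18 counts in WT 1, 2 and 3 and 18 and 2 counts in null 5 and 6, whereas cd4-1 was highest in null 5.

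Among 16 tested T-lineage transcription factor genes the median was 0.59. Without overlap, 3 were higher and 2 lower, beside 11.1% and 14.8% of all genes tested. tcf7, which encodes the Wnt-pathway factor TCF-1 of T-cell development, had 33, 17 and 15 counts in WT 1, 2 and 3 and 74 and 75 counts in null 5 and 6. It thus had the same form as il7r, with both null libraries alike and high, and a log2 fold change of 1.67 ± 0.68 (SE) with an adjusted p-value of 0.612 in edgeR. satb1a, a chromatin organiser, and batf, an AP-1 family factor, were at 2.1001 and 2.47, and both were highest in null 6. The lower ones were ikzf1, the lymphoid factor Ikaros, at -1.30 and rorcb at -1.15. foxp3b, the paralogue of foxp3a, had 16, 9 and 4 counts in WT and 27 and 6 counts in the null libraries.

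**Figure D4:**
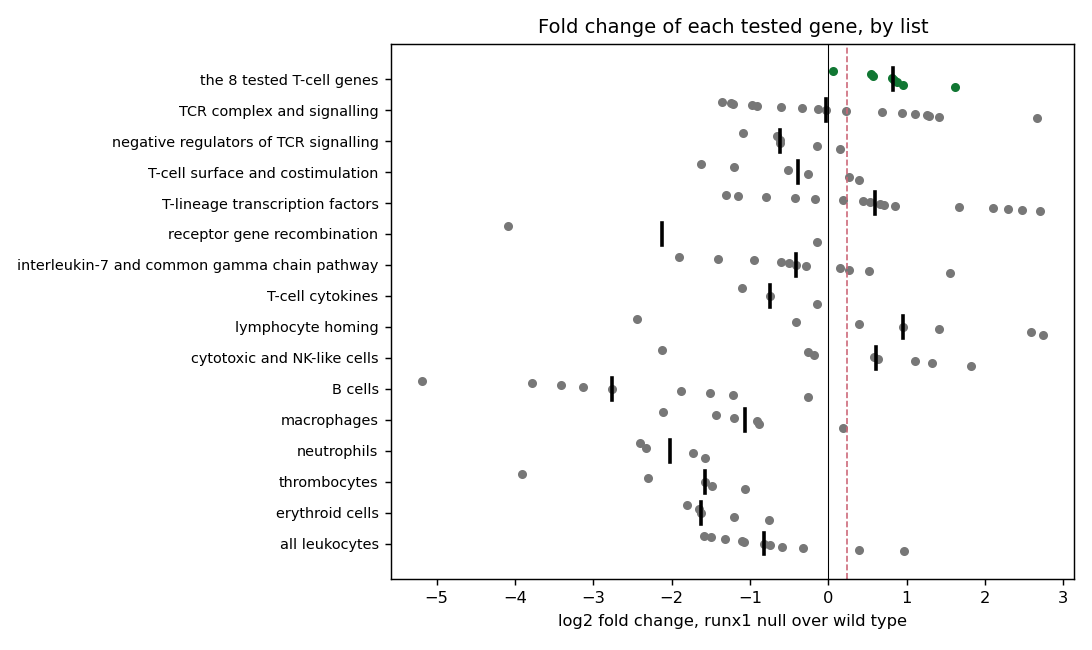
Log2 fold change, runx1 null over WT (x axis), of each tested gene, by list (y axis). Points are genes, black bars are list medians and the dashed line is the median of all genes tested, 0.24. The 8 tested T-cell genes lie from 0.06 to 1.62, and the B-cell genes lie from -5.18 to -0.26.

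Receptor gene recombination, which T and B precursors share, gave few counts. rag1, a subunit of the recombinase, had 63, 53 and 11 counts in WT 1, 2 and 3 and 4 and 1 counts in null 5 and 6. The groups did not overlap, and the log2 fold change was -4.09 ± 1.24 (SE), with an adjusted p-value of 0.612 in edgeR. Its partner rag2 had 43, 35 and 11 counts in WT and 4 and 56 counts in null 5 and 6. The 2 genes thus parted in null 6, the library highest in oocyte genes, and not in WT 2, the next highest. The source of the rag2 counts in null 6 was not tested.

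Of the interleukin 7 and common gamma chain pathway, 11 genes were tested, with a median of -0.42. The ligand gene il7 had 21, 18 and 17 counts in WT 1, 2 and 3 and 82 and 38 counts in null 5 and 6, and was the 1 gene of the list higher without overlap, at 1.55 ± 0.73 (SE). Both il7 and il7r lay above all WT libraries in both null libraries, as did 11.1% of all genes tested. Neither passed the adjusted threshold in edgeR, at 0.612 each, and a link between them was not tested. The gamma chain copy il2rgb, the kinase gene jak3 and the transcription factor genes stat5a and stat5b were lower without overlap, at -1.91, -1.41, -0.50 and -0.95. Each of these 4 serves more than 1 cytokine. Over all genes tested, 11.1% were higher and 14.8% lower without overlap.

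Of the T-cell cytokine genes, 3 passed the filter and 8 did not. il13 was at -1.104, il21 at -0.75 and tnfb at -0.15, and all overlapped. In the homing list of 7 tested genes, the chemokine gene ccl19a.1 had 62, 108 and 45 counts in WT and 913 and 130 counts in null 5 and 6, with overlap in CPM and a log2 fold change of 2.74. ccl19b, a related chemokine gene, was at 2.59 with overlap. The chemokine receptor gene cxcr3.2 had 643, 500 and 132 counts in WT and 135 and 27 counts in the null libraries, and in CPM it was lower without overlap, at -2.44. Among the 8 tested genes of cytotoxic and natural killer-like cells, which also use lck and zap70, the median was 0.61. The granzyme gene gzmk, at 1.82, overlapped, gzm3 was higher without overlap at 1.104, and the NK-lysin gene nkl.3 was lower at -2.13.

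Likeness between genes was measured as the root mean square difference of centred log2 CPM over the 5 libraries. Among the 28 pairs of tested T-cell genes it ranged from 0.21 for lck with zap70 to 1.22 for cd28 with foxp3a, with a median of 0.64. Outside the T-cell genes and with a mean of at least 50 counts, exoc3l2b and sema3aa were nearest to lck, at 0.06 and 0.09. Nearest to cd28 were cd34 and ADGRG6, at 0.04 and 0.07, and nearest to il7r were MVP and CRIP2, at 0.09 and 0.10. For cd8a they were NAV1 and STING1, for bcl11ba PFKL and cxxc5b, and for foxp3a tyro3 and PGRMC1, all within 0.16. The first neighbour of cd4-1 was an ID without a symbol and the second was ZFHX4, at 0.10, and both neighbours of zap70 had no symbol. Among the listed genes, tbx21, a transcription factor gene of helper T cells, and itk followed zap70 as the nearest to lck, at 0.25 and 0.30, with 0.491% and 0.986% of all genes tested nearer. Other genes of the T-cell lists lay far from lck, such as cd247 and ikzf1, with 83.2% and 80.5% of all genes tested nearer. The macrophage gene marco, at 0.47, and btk of the B-cell list, at 0.63, lay nearer to lck than foxp3a, at 0.77. Of the 15967 genes compared, 851 lay within 0.5 of lck, so a pattern over 5 libraries was shared by many genes.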

How the data were processed

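Whole-kidney libraries of 3 WT and 2 runx1-/- pools were compared. The authors deposited 1 table of raw read counts per Ensembl gene for each library. HISAT2 2.2.1.0, HTSeq 0.11.4, DESeq2 and the build GRCz11 are named, per the submitters' processing notes, and the strand setting is not given in the sources used here, so counts of overlapping genes are uncertain. Rows that name no gene held 28.1% to 39.4% of reads and were left out, among them reads with several alignments, 8.58% to 10.3%, so paralogues can be undercounted. Symbols were looked up by gene ID, and 171 of 228 list names matched 1 ID.

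Genes were kept by filterByExpr (minimum count 10, minimum total 15), scaled with TMM and tested with edgeR 4.0.16 by the two-sided quasi-likelihood test with robust empirical Bayes, in R 4.3.3. The Benjamini-Hochberg adjustment ran over all 20386 genes, with a threshold of 0.05. Standard errors are the log2 fold change divided by the root of the F statistic. Log2 CPM values used a prior count of 2. The fit was also run on simulated counts with planted changes larger than those of the T-cell genes, so that run does not measure power for these genes. The level of 3 counts was 0.0876 to 0.113 CPM, and Poisson intervals at 95% cover counting error only. No library repeated another, with at least 145 chi-square units per degree of freedom in each of 10 pairs.

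Named genes were the 9, up to 3 genes per T-cell, B-cell and cytotoxic list with the smallest p-values, any list gene free of overlap and averaging at least 50 counts, and the 2 nearest genes by pattern. Others (trbc1, itk, tbx21, cd247l, foxp3b, the thymus genes and ptprc) were named after their values were seen. The members and lists were chosen with earlier results of these data known. DESeq2 1.42.0 and the other alternatives are given in the closing section, and the alternative leukocyte references were chosen after seeing the data. One further gene of the lists is not reported here. Sequences were not used here, and gene positions served only to see whether cd8a and cd8b are neighbours in RefSeq (GRCz12tu).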

Additional observations from a re-analysis of the deposited data

How the results depend on the processing

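No paired analysis was possible because WT pools are numbered 1 to 3 and null pools 5 and 6. The count of T-cell genes called stayed at 0 under all alternatives run. The count of all genes called was 0 except for 75 with the DESeq2 Wald test, 23 higher and 52 lower, and 2429 with scaling to leukocyte genes, 2415 higher and 14 lower, which moved the median of all genes to 1.45. It was 0 without each replicate in turn. Signs turned only when 1 library was left out. Without null 5, log2 fold changes were -0.13 for lck, -0.080 for zap70, -1.24 for cd4-1, -1.44 for cd8a, -0.99 for cd28 and -0.57 for bcl11ba. Without WT 3, cd4-1 was at -0.32. Leaving out null 6 gave the highest values without a replicate, 1.43, 1.57, 0.76, 1.75, 1.299 and 1.23 in the same order of genes. il7r and foxp3a stayed positive throughout. Without WT 2 and null 6 the 8 genes of the main test were positive, from 1.04 for bcl11ba to 1.98 for cd8a. There the lone null library was assumed to vary like the WT libraries. cd8b is left out of this range, because it passed the filter in that fit only through its counts in null 5. The count of T-cell genes above all WT libraries relative to leukocyte genes was 8 or 9 with other leukocyte references or a lower prior count. Leaving out a library could not lower it, because all 9 were already free of overlap with every library included. cd8a, cd8b and foxp3a have too few counts for small differences to be detectable.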
